A study of Mus musculus with 2 samples.

Results

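Dense clusters of distal open chromatin held 748 of the 47730 shared distal regions of mouse megakaryocytes (1.57%), or 1.10% of all 67991 shared regions on chromosomes 1 to 19. The regions were chosen by their positions in the deposited peak lists. Overlapping peaks of a sample were merged, regions of both samples that overlapped were joined into shared regions, and those more than 1 kb from every annotated transcript start were taken as distal. Neighbouring distal regions with gaps of at most 5 kb were chained, and every region of a chain of 6 or more was kept. This gave 110 clusters, 59 of them with 6 regions, 27 with 7, 14 with 8, 7 with 9 and 3 with 10.

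The samples were primary megakaryocytes, the marrow cells that shed platelets, from male adult C57BL/6J mice aged 5 to 6 weeks. Chromatin of 50000 cells per sample was probed by ATAC-seq, in which a transposase cuts accessible DNA and marks it for sequencing. The design had 1 group of 2 biological replicates that carry the same donor record, and no other cell type, genotype or treatment. The label of replicate 2 alone lists sequencers.

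Distal open regions include enhancers, stretches of DNA where transcription factors bind and from which they raise the transcription of a gene that may lie far away. Genes that define a cell type often have several such elements close together, and the densest groups with strong activator signal are called super-enhancers or stretch enhancers. Accessibility alone does not separate enhancers from insulators or silencers, and no activator or histone data were used here. In megakaryocytes, factors of the GATA, ETS, RUNX and NF-E2 families are known to bind distal elements, and PU.1 and C/EBP factors do so in other myeloid cells.

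Depth was unknown, since the lists hold peaks and no read counts, so absence from a list says only that a region escaped detection. On chromosomes 1 to 19, 106308 peaks of replicate 1 merged into 78004 regions, and 111873 peaks of replicate 2 into 79861 regions. The label was checked against promoters: a shared region lay within 500 bp of a start in 10 of 22 megakaryocyte and platelet genes, among them Pf4, Itga2b, Itgb3, Vwf and Plek. Gp9, Gp1ba, Gp1bb, Gp5, Gp6, Ppbp and Tubb1 had none. The same held for 17 of 19 transcription factors of megakaryocytes and progenitors. It held for 13 of 15 neutrophil genes, 9 of 12 monocyte and macrophage genes and 8 of 11 erythroid genes. Counts were 5 of 10 B cell, 4 of 10 T and NK cell, and 4 of 9 mast cell and basophil genes. Hepatocyte genes had 0 of 8 and housekeeping genes 11 of 11. The share over all coding genes was not counted, and these lists did not set megakaryocytes apart from other blood cells. Promoters of other blood cells were thus open too, and their part in the clusters was not tested.

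The sequences below are the summit windows of the strongest region in 9 clusters: 6 of the 12 with the most regions (ties in number broken by span), and those at Erg, Cd9 and Actb. They show what kind of DNA the results describe. Each runs 5′ to 3′ on the plus strand of mm10 and reaches 50 bases to each side of the summit, read from the reference genome of that build, with matches to any of 12 motifs in capitals. The 9 were picked after their values were seen, from clusters that a rule had already named.
Timm8a2 cluster (chr14:122036004-122036104): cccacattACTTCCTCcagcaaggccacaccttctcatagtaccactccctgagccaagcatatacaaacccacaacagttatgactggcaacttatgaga
Itpr1 cluster (chr6:108549656-108549756): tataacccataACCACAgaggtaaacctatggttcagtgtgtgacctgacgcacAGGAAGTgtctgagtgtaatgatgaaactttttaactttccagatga
Ier5 cluster (chr1:155050337-155050437): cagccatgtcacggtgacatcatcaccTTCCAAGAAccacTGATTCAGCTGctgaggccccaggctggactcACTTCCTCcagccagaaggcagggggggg
Itgb2 cluster (chr10:77551099-77551199): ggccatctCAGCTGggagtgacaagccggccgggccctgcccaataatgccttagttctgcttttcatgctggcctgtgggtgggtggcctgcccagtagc
Prkch cluster (chr12:73598383-73598483): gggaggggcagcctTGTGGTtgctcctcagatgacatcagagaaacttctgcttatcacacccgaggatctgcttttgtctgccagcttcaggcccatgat
Ccr1 cluster (chr9:123942157-123942257): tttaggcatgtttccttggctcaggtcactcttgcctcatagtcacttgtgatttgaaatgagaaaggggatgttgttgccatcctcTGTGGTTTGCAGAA
Erg cluster (chr16:95434673-95434773): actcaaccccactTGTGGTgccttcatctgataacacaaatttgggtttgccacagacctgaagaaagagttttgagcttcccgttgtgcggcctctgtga
Cd9 cluster (chr6:125426524-125426624): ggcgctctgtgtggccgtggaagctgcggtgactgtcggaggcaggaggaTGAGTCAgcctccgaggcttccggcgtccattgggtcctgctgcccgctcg
Actb cluster (chr5:142920865-142920965): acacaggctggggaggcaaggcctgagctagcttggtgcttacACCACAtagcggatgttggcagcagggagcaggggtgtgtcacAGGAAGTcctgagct

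The window in the first region of the Itpr1 cluster held a RUNX match and an ETS match, and the window near Ier5 held matches to ETS, PU.1, AP-1, E-box and STAT motifs. Cd9 had an AP-1 match at the very summit of its strongest region. The windows of Erg and Prkch each held a RUNX match. A match is a string of letters and shows no binding.

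The members were narrow and covered little of the clusters they formed. Clusters spanned a median of 15131.5 bp, from 5991 bp to 31999 bp, and their regions covered 311.229 kb of 1763.884 kb. The open share of a cluster had a median of 17.5% and ranged from 9.67% to 40.8%. Members had a median width of 368.5 bp, against 419 bp in the other 46982 shared distal regions. Only 12 members (1.60%) were 1000 bp or wider, against 2.55% of the other distal regions. The clusters were thus made of separate short regions and not of broad ones, by a rule that asked for number and nearness.

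The thresholds cut through a continuum. Asking for both replicates also set the number: by the same rule, regions of replicate 1 alone gave 1113 members in 162 clusters, and those of replicate 2 alone 1721 in 253. The widest gap inside a cluster was 5000 bp and the narrowest gap just outside one was 5071 bp. Just below the limit on number lay 198 chains of 5, with 990 regions. Regions in clusters of 6 had median fold enrichments of 5.67 in replicate 1 and 5.75 in replicate 2, and those in chains of 5 had 5.63 and 5.76. The member nearest to a start lay 1010 bp from it, and 25 members lay no more than 1500 bp away.

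Regions in dense clusters had lower fold enrichment than other distal regions in both replicates. Fold enrichment is the linear ratio of a peak's signal to its background as the authors' lists give it. Its median was 5.51 in members and 6.84 in other distal regions in replicate 1. In replicate 2 it was 5.53 in members and 7.41 in other distal regions. The difference of the medians, members minus others, was -1.33 in replicate 1 and -1.88 in replicate 2, a mean of -1.61 ± 0.387 (SD, n = 2). It had the same sign in both samples and was not tested, since the same peaks chose the members and regions are not replicates.

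Members were lower at both ends of the distribution. Mean fold enrichment over the replicates had its percentile 5 at 3.23 in members and 3.87 in other distal regions, and its percentile 95 at 10.4 in members and 14.2 in other distal regions. Only 12 members (1.60%) were among the strongest 10% of shared distal regions, and 355 (47.5%) were among the weakest 25%. Of the 110 clusters, 104 had a median below that of the other distal regions, while 86 had at least 1 region above it. Most clusters thus held at least 1 region above that median while their own median lay below it. How many such regions each cluster held was not counted.

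Fold enrichment was lower the longer the chain, and the dense clusters continued that order only in part. Regions on their own had medians of 7.39 in replicate 1 and 8.08 in replicate 2. Chains of 3 had 6.12 and 6.41, and chains of 5 had 5.63 and 5.76. Within the dense clusters, medians were 5.67 and 5.75 for 6 regions, 5.54 and 5.59 for 7, 4.86 and 4.90 for 8, 4.99 and 4.91 for 9, and 5.77 and 5.65 for 10. Medians were lowest in the clusters of 8 and 9, and the 3 clusters of 10, with 30 regions, stood above them.

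**Figure D1:**
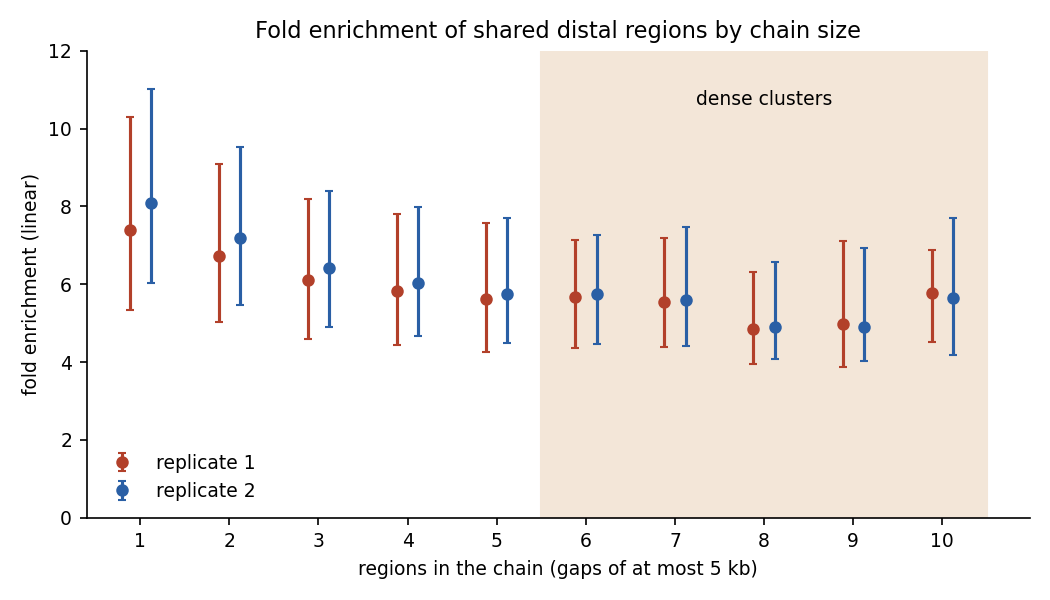
Median fold enrichment (points) of shared distal regions by the number of regions in their chain, with the quartiles as bars, in replicates 1 and 2; the shaded sizes are the dense clusters. Medians were 7.39 and 8.08 for single regions and 4.86 and 4.90 in clusters of 8.

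The significance that the authors' caller gave did not follow the fold enrichment. The median listed -log10 p was 21.1 in members and 19.7 in other distal regions in replicate 1. In replicate 2 it was 23.97 in members and 23.99 in others. At like fold enrichment, members had the higher -log10 p in each of 5 ranges in both replicates. Between 5-fold and 6-fold, the median -log10 p was 21.6 in members and 11.8 in others in replicate 1, and 22.7 in members and 13.5 in others in replicate 2. Between 4-fold and 5-fold it was 15.9 in members and 9.11 in others in replicate 1, and 18.2 in members and 10.2 in others in replicate 2. Widths in these ranges were alike: from 5-fold to 6-fold in replicate 1 the median was 377 bp in members and 350 bp in others. The lists hold neither the local background nor the reads behind each ratio, so the reason was not tested.

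**Figure D2:**
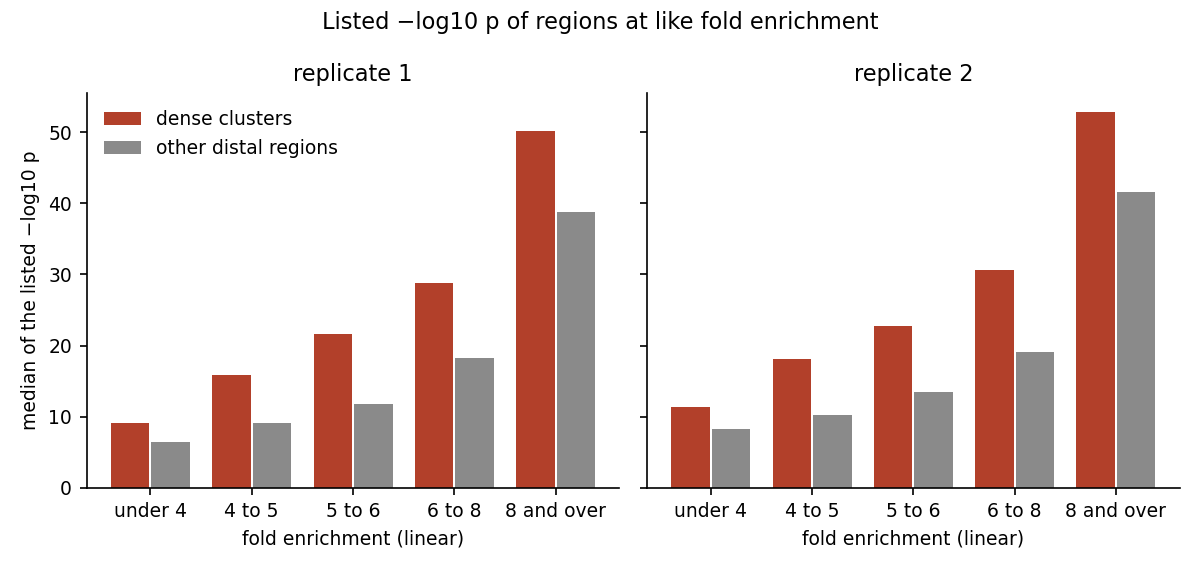
Median of the listed -log10 p (bars) of regions in dense clusters and of other distal regions, by range of fold enrichment, in replicate 1 and replicate 2. Bars of the dense clusters are higher in all 5 ranges, with 21.6 against 11.8 from 5-fold to 6-fold in replicate 1.

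The stricter lists held a share of the members a few points above the background. Lists cut by irreproducible discovery rate (IDR), a measure of how far ranked peaks recur, held 387 members (51.7%) in both replicates, against 46.1% of all shared distal regions. The conservative IDR list of the pooled samples held 636 members (85.0%), against 80.2% of all shared distal regions. Neither replicate's IDR list held 241 of 748 members, against 16681 of 46982 other distal regions. In 45 clusters every region was in the conservative list, in 6 every region was in both IDR lists, and in 1 cluster no region was.

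Signal of the members was close between the samples. On the log2 scale, the median ratio of replicate 1 over replicate 2 was -0.01 in members, with an SD of 0.20, and -0.08 in other distal regions, with an SD of 0.26. In 740 members (98.9%) the replicates were within 1.5-fold of each other, against 95.6% of other distal regions. Replicate 1 was the higher in 349 members (46.7%), against 35.4% of other distal regions. Across regions, which are not independent, Spearman's rank correlation was 0.918 in members and 0.904 in others, and Pearson's r was 0.942 in members and 0.923 in others. Regions listed in 1 replicate only also lay inside the clusters, 15 of them in replicate 1 and 35 in replicate 2, and 71 clusters held none. On chromosomes 1 to 19 as a whole, 8308 of 78004 merged regions were in replicate 1 only, and 10982 of 79861 in replicate 2 only.

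Regions of a cluster differed in strength. The strongest region of a cluster exceeded its weakest by a median of 2.54 times, from 1.16 to 5.09 times. It exceeded the next strongest by a median of 1.16 times, and by at least 1.5 times in 10 clusters. The strongest region was the first or last of its cluster in 47 of 110 clusters (42.7%), while first and last places made up 220 of 748 (29.4%). These outer regions had median fold enrichments of 5.96 in replicate 1 and 6.26 in replicate 2, against 5.27 and 5.30 in the 528 regions between them.

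Of the clusters with the most regions, those at Timm8a2, Tnfaip8 and Itpr1 had 10 each. Timm8a2 encodes a subunit for import into the mitochondrial inner membrane, and its cluster spanned 31068 bp at chr14:122035911-122066978, with 3 regions in introns and 7 between genes. Fold enrichment there ran from 3.44 to 9.28 in replicate 1 and from 3.51 to 9.84 in replicate 2. The first region was at 8.82 in replicate 1 and 9.84 in replicate 2, and the eighth at 9.28 and 9.16. The strong regions thus lay near both ends, with the lowest values between.

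Itpr1 encodes the receptor through which inositol trisphosphate releases calcium from internal stores, a step in platelet activation. Of the 10 regions of its cluster, at chr6:108549414-108571727, 1 lay in an intron of Itpr1 and 9 lay between genes. The first region, in the intron, was at 11.4 in replicate 1 and 10.9 in replicate 2. The tenth region was at 8.45 in replicate 1 and 8.76 in replicate 2, and 7 of the 8 between them were under 6 in both replicates. The exception, the fourth, was at 6.18 in replicate 1 and 7.48 in replicate 2. At 2 summits of the cluster the sequence was not single-copy: the 31 bases at the fifth occurred 46 times in the reference and those at the seventh 3 times. Their values of 3.65 and 4.13 in replicate 1, and 4.18 and 4.19 in replicate 2, were those of repeated sequence, and the part of other copies in them was not tested.

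Tnfaip8, a gene induced by tumour necrosis factor that restrains cell death, held all 10 regions of its cluster in its introns, at chr18:50016369-50045251. Fold enrichment went down along the first 6 regions in both replicates, with 9.34 in replicate 1 and 10.4 in replicate 2 at the first and 4.08 and 3.97 at the sixth. This cluster had the largest open width of all, 4915 bp, and all 10 regions were in the conservative list.

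Among the clusters of 9 were those in Itgb2 and near Ccr1. Itgb2, the shared beta subunit of the leukocyte integrins, held 9 regions in its introns at chr10:77531769-77555267. Regions 2, 5 and 8 were at 7.95, 7.07 and 10.5 in replicate 1 and at 8.64, 7.09 and 10.7 in replicate 2. The other 6 were between 3.02 and 4.04 in replicate 1 and between 2.87 and 3.88 in replicate 2. Regions 2, 5 and 8 were set apart by these same values. The median of this cluster, 3.73 over the mean of the replicates, was the second lowest of all.

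Near Ccr1, a chemokine receptor of myeloid cells, 9 regions 26.3 kb or more from its start were all of similar strength, at chr9:123924153-123942391. They ran from 3.75 to 6.23 in replicate 1 and from 3.69 to 6.29 in replicate 2. Their listed -log10 p was high for such ratios, at least 32.4 in replicate 1 and 26.8 in replicate 2, and all 9 were in both IDR lists.

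Prkch, a protein kinase C isoform, held 9 intronic regions at chr12:73593145-73613734, from 3.34 to 8.26 in replicate 1 and from 3.55 to 8.10 in replicate 2. Lrrfip1, whose product binds nucleic acids and actin regulators, held 8 intronic regions at chr1:91056427-91080843. Its last region was at 15.1 in replicate 1 and 15.7 in replicate 2, while the other 7 were no higher than 4.91 in replicate 1 and 4.94 in replicate 2. That ratio of strongest to next, 3.21, was the highest of the 110 clusters.

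The others of the 12 clusters named for size lay at Tagap, Ier5, Susd1, Mbp and Serpinb2. Of the 14 clusters of 8, tied in number, those at Serpinb2 and Lrrfip1 were named for their longer span. Tagap, a GTPase-activating protein of lymphocytes, was the nearest coding gene, 19.3 kb away, of 9 regions with medians of 6.55 in replicate 1 and 5.53 in replicate 2. Ier5, an immediate early gene, lay 24.1 kb from 9 regions with medians of 6.65 and 6.31. Susd1 overlapped a cluster of 9 with medians of 5.76 and 5.06. Mbp, known for myelin and with other transcripts in blood cells, held 9 intronic regions with medians of 4.58 and 4.71. Serpinb2, the plasminogen activator inhibitor of macrophages, overlapped a cluster of 8 with medians of 6.13 and 6.43.

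**Figure D3:**
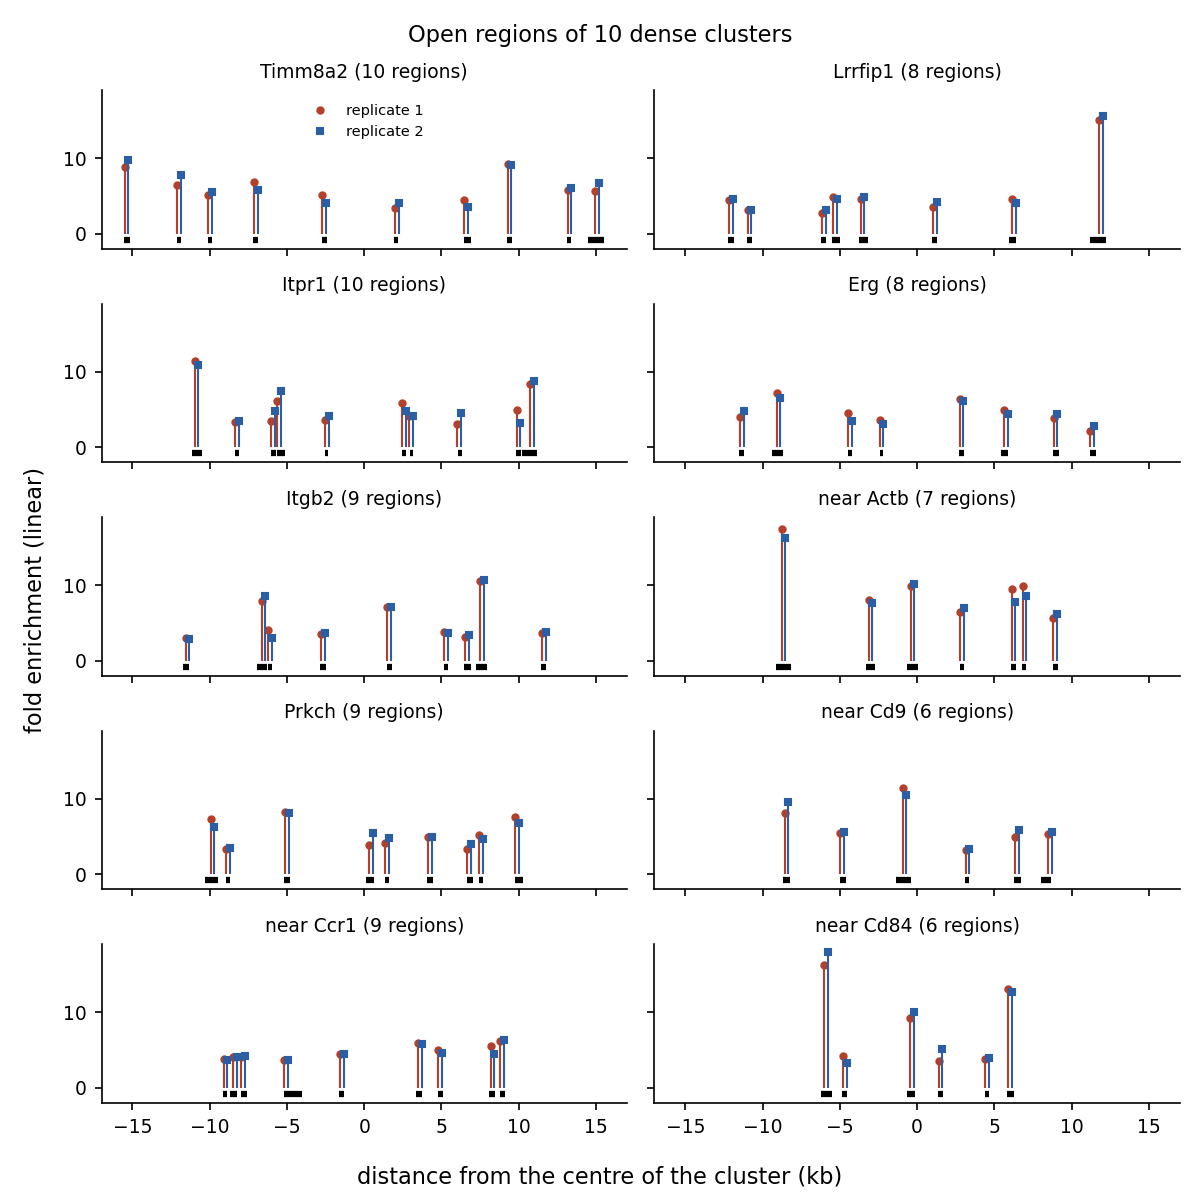
Fold enrichment in replicate 1 (circles) and replicate 2 (squares) of each region of 10 dense clusters, by distance of its summit from the centre of the cluster in kb; black bars mark the regions' extent. In the Lrrfip1 panel the last region stands at 15.1 and 15.7, while those near Ccr1 stay between 3.69 and 6.29.

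Cluster medians over the mean of the replicates ranged from 3.57 to 8.69. Near Actb, the gene of beta-actin, 7 regions at chr5:142920445-142938691 had medians of 9.56 in replicate 1 and 7.83 in replicate 2. The region nearest to Actb, 13.7 kb from its start, was at 17.4 in replicate 1 and 16.3 in replicate 2, and all 7 were in the conservative list. The next highest medians over both replicates were 7.85 at 41.7 kb from Cdkn2aipnl, 7.45 in Nt5c2, a purine nucleotidase, 7.39 in Ostf1 and 7.24 in Nucb2. The lowest was 3.57, in Itpk1, an inositol phosphate kinase, whose 6 regions ran from 2.53 to 6.57 in replicate 1 and from 2.82 to 6.76 in replicate 2. After Itgb2 came Vav3, a guanine nucleotide exchange factor, at 4.08, a cluster 87.7 kb from Tomm20 at 4.09, and 1700025G04Rik at 4.11.

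The 5 strongest members lay near Cd84, Actb and Cd180 and in Lrrfip1 and Rab31. The highest, 23.3 kb from Cd84, a SLAM family receptor of platelets and leukocytes, was at 16.3 in replicate 1 and 17.98 in replicate 2. The sixth region of the same cluster was at 13.1 and 12.7, and regions 2, 4 and 5 were between 3.61 and 4.27 in replicate 1 and between 3.23 and 5.11 in replicate 2. Region 3 lay between the strong and the weak ones, and the cluster had medians of 6.76 in replicate 1 and 7.57 in replicate 2. Cd180, a Toll-like receptor relative of B cells and macrophages, lay 14.5 kb from a member at 15.1 in replicate 1 and 16.5 in replicate 2. An intron of Rab31, a small GTPase of vesicle traffic, held a member at 15.03 in replicate 1 and 15.07 in replicate 2.

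Intron and intergenic shares of the members were near those of other distal regions, while exon summits were fewer and starts farther away. Summits lay in introns in 390 members (52.1%), against 52.0% of others, between genes in 335 (44.8%), against 42.4%, and in exons in 23 (3.07%), against 5.63%. Members lay a median of 13.9 kb from the nearest transcript start, against 9.99 kb. The rule took out regions within 1 kb of a start before chaining, and its part in this distance was not tested. Of the clusters, 65 overlapped a coding gene, 47 of them lay wholly inside 1, and 45 overlapped none. A coding start lay within 10 kb of 48 clusters and within 50 kb of 93, and 17 were farther away. Only 7 clusters had an open promoter region inside. GC content within 100 bp of the summit had a median of 50.2% in members and 49.3% in others.

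Few genes of the 13 lists had a dense cluster over the gene or within 50 kb of a start. Of 20807 coding genes, 183 did (0.88%). That background moved with the rule: it was 267 genes (1.28%) with regions of replicate 1 alone and 419 (2.01%) with those of replicate 2 alone. In the list of megakaryocyte and platelet genes it was 1 of 22 (Cd9), and in that of transcription factors 1 of 19 (Erg). The housekeeping list had 2 of 11, among them Actb. The other 10 lists, with 97 genes of red cells, neutrophils, macrophages, mast cells, lymphocytes, endothelium, stroma, liver and neurons, had none. Counts of 1 or 2 genes are too few to read against a background of 0.88%. Genes with a cluster were longer, with a median of 29.1 kb against 17.6 kb for all coding genes, and the part of gene length in the count was not tested.

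Erg encodes an ETS family transcription factor required in stem cells and megakaryocytes. All 8 regions of its cluster, at chr16:95432142-95455251, lay in introns, from 3.99 kb to 26.8 kb from the nearest annotated start. Fold enrichment was highest at the second region, at 7.19 in replicate 1 and 6.57 in replicate 2, followed by the fifth at 6.37 and 6.14. It was lowest at the eighth, nearest to a start, at 2.14 in replicate 1 and 2.79 in replicate 2. The medians were 4.24 in replicate 1 and 4.45 in replicate 2, below those of all members. No shared region lay within 500 bp of a start of Erg.

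Cd9 encodes a tetraspanin of platelets and of many other cells, and its promoter was open. Its cluster of 6 regions, chr6:125418697-125436086, lay beyond the 3′ end of the gene and 26.9 kb from the nearest annotated start. The third region was at 11.5 in replicate 1 and 10.5 in replicate 2, and the first, with a CTCF match, at 8.12 and 9.60. The other 4 were between 3.19 and 5.54 in replicate 1 and between 3.34 and 5.92 in replicate 2.

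Sequence motifs were counted within 100 bp of each summit on both strands. For erythroid and megakaryocytic GATA factors the letters were AGATAA. The wide ETS family was read as AGGAAGT, and its myeloid member PU.1 as GAGGAAGT. RUNX factors of blood cells were read as TGTGGT. AP-1, the Fos and Jun dimer, was read as TGANTCA, and its relative NF-E2 of the platelet lineage as GCTGAGTCA. C/EBP of myeloid cells was read as TTGCNNAA. The E-box of helix-loop-helix factors was read as CAGCTG. KLF factors were read as CCNCACCC, cytokine-driven STAT factors as TTCNNNGAA, and interferon regulatory factors (IRF) as GAAANNGAA. The longer CTCF motif was searched by its core. Each PU.1 match is also an ETS match, and each NF-E2 match an AP-1 match. ETS was the commonest, in 205 members (27.4%) and 25.8% of other distal regions, followed by RUNX in 194 members (25.9%) and 25.6% of others. GATA was in 64 members (8.56%) and 9.28% of others. None of the 12 was in 164 members (21.9%) and 20.8% of others.

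CTCF, the factor that marks insulators and loop anchors, showed the widest gap of the 12 motifs. Its match was in 31 members (4.14%), against 8.40% of other distal regions. At the summits of replicate 1 alone it was in 4.14% of members and 8.39% of others, and at those of replicate 2 in 4.14% and 8.36%. In windows 1 kb away the shares were 0.33% beside members and 0.27% beside others. Members with a CTCF match had a median fold enrichment of 6.79, against 5.50 in members without one. The difference in shares was not tested.

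**Figure D4:**
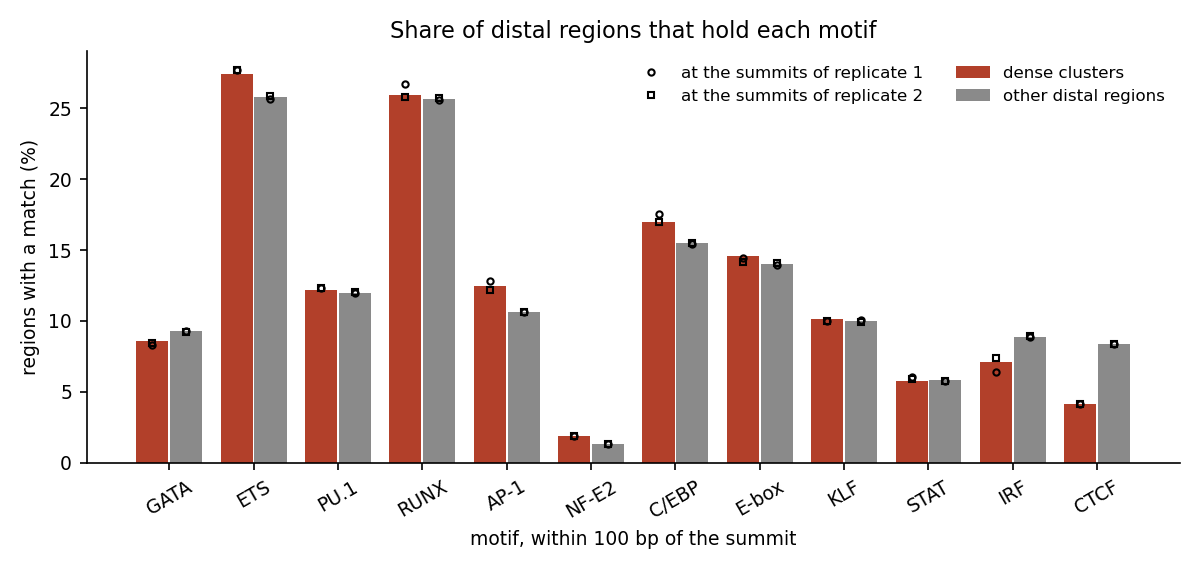
Percent of regions with each motif within 100 bp of the summit in dense clusters and in other distal regions (bars), with the shares at the summits of replicate 1 (circles) and replicate 2 (squares). The CTCF bar stands at 4.14% in dense clusters and 8.40% in other distal regions, while RUNX stands at 25.9% and 25.6%.

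The other motifs differed less. AP-1 was in 12.4% of members and 10.7% of others, C/EBP in 16.98% and 15.5%, and NF-E2 in 1.87% and 1.30%. IRF was in 7.09% of members and 8.90% of others. Members with a PU.1 match had a median fold enrichment of 6.26, against 5.39 without one, and those with GATA 4.67, against 5.57.

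Chromosome 19 held the largest share of its distal regions in dense clusters. There were 66 members in 10 clusters on it, 4.72% of its 1398 shared distal regions, and the other chromosomes ranged from 1.05% to 2.29%. In members per Mb it had 1.07, and the others 0.19 to 0.44. Distal regions as a whole were not densest there, at 22.8 per Mb against 23.9 on chromosome 11, and 27.7% of its gaps between neighbours were at most 5 kb, within the range of 25.99% to 29.7% on the others. Fold enrichment over all its distal regions had medians of 7.11 in replicate 1 and 7.51 in replicate 2, against 6.63 to 7.03 and 7.19 to 7.52 on the others. Its members had medians of 5.74 in replicate 1 and 5.77 in replicate 2. With 10 clusters on 1 chromosome, this share rests on few loci, and its difference from the other chromosomes was not tested.

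**Figure D5:**
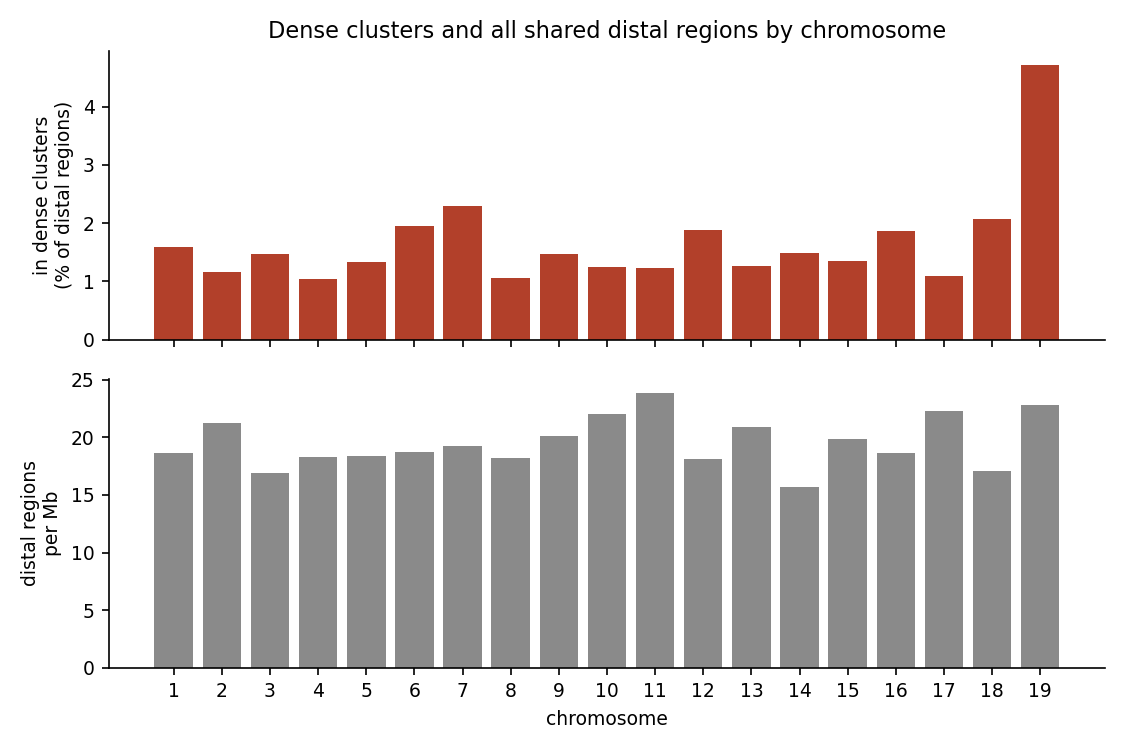
Share of shared distal regions that lay in dense clusters (upper bars, %) and shared distal regions per Mb (lower bars), by chromosome. Chromosome 19 reaches 4.72% in the upper bars, and its 22.8 regions per Mb are below the 23.9 of chromosome 11.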

How the data were processed

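ATAC-seq peaks of 2 samples in 1 group were used, on build mm10 per the labels. The sources used here name no aligner or peak caller. In the deposited lists, column 7 is the fold enrichment, a ratio, column 8 the −log10 p-value and column 10 the summit, read from the peak format since no header defines them, with 0 columns of values left unmapped. Peaks called on each sample, and IDR lists of each sample and of the pooled samples, were those of the authors. From them, regions were merged, joined where replicates overlapped by at least 1 bp, with the highest fold enrichment kept, and chained with pandas 2.3.3; distances used GENCODE M21 transcript starts. Motifs were searched within 100 bp of summits. No test was made, since 2 samples of 1 group allow no comparison between groups and the members were selected on the same peaks. Members, gene lists and rules were chosen with earlier results of these data known. Named clusters were the 12 with most regions (ties to the longer span), the 5 highest and 5 lowest by median, the 5 with the largest open width, the 5 strongest members, and listed genes with a cluster. Alternatives changed gap, number, distance, lists, overlap, fold, window and replicates; 2 were added after seeing the data. Chaining gave back planted chains on simulated data. Gata1, Alas2, Dcx, Hprt and Syn1, not on chromosomes 1 to 19 under these symbols, were not used here. Some results that the rule would name are not reported here.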

Additional observations from a re-analysis of the deposited data

How the results depend on the processing

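The number of members, the number of clusters, the share of distal regions in them and the fold difference between members and other distal regions (748, 110, 1.57% and -1.62 on the mean of the replicates) depended on the rule. With gaps of at most 2.5 kb they were 51, 8, 0.107% and -2.45, and with gaps of at most 10 kb 5795, 774, 12.1% and -0.895. Chains of 5 or more gave 1738 members, 308 clusters and 3.64%, and chains of 8 or more 205, 24, 0.429% and -2.07. The IDR lists of each sample gave 61, 9, 0.277% and -4.31, the replicated peaks 3184, 456, 4.56% and -1.17, and the conservative list 493, 73, 1.24% and -2.90. Peaks of at least 4-fold gave 176 members, 27 clusters and 0.415%. The share was 1.34% beyond 2 kb from a start and 1.92% with starts of coding genes only. With 50% reciprocal overlap there were 687 members, 1.504% of distal regions, and the difference was -1.65. With only 1 replicate's regions, the 4 values lay between 1113 and 1721, 162 and 253, 2.00% and 3.01%, and -1.602 and -0.995, with the higher counts in replicate 2. The fold difference stayed negative in these 13 alternatives and without chromosome 19, an alternative added after seeing the data (-1.64). With -log10 p in place of fold, also added then, it turned to 0.763, with an SD of 0.975 between the replicates' differences. The sign was positive in replicate 1 (21.1 in members, 19.7 in others) and slightly negative in replicate 2 (23.97 and 23.99). Of the 110 clusters, 57 were overlapped by a cluster of the conservative list. The small difference between members and others in the share with a motif changed sign for RUNX within 50 bp of the summit (-1.01 points), for KLF with 1 replicate's summits (between -0.0111 and 0.0761) and for STAT within 50 bp (0.205) and with 1 replicate's summits (between 0.138 and 0.256). With regions of either replicate alone Nbeal2 also had a cluster, and with those of replicate 2 alone Selp, Adgre1, Klrb1c and Rplp0 too. Within 20 kb, Cd9 had none and 99 coding genes (0.476%) had one, and within 100 kb 360 (1.73%). The causes were not tested. No paired analysis was possible because there was 1 group; differences within each replicate stand in the report. Depth was unknown, and its part in which weak regions were listed, and so in how chains join, was not tested.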

Other observations

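These genes were picked after their values were seen. Of coding genes, 2 were overlapped by a pair of dense clusters. Stim2, a sensor of calcium in internal stores, had 12 regions in 2 clusters 44.1 kb apart, with medians of 6.66 in replicate 1 and 6.00 in replicate 2 in one and 6.27 and 6.44 in the other. Asap1, a GTPase-activating protein for Arf, had 14 regions in 2 clusters 172 kb apart, with medians of 6.51 and 6.56 and of 5.57 and 6.18. The closest pair, 33.8 kb apart, lay at Ifitm10 and beside Ctsd, a lysosomal protease, with 7 regions (medians 5.43 in replicate 1 and 5.03 in replicate 2) and 6 (5.15 and 4.93), both within 50 kb of starts of both genes. Other clusters overlapped genes of blood cell signalling: Ptprc, the CD45 phosphatase (7 regions, medians 6.69 in replicate 1 and 6.27 in replicate 2), Plcg2, a phospholipase C (6 regions, 6.25 and 6.12), and Grb2, an adaptor (6 regions, 5.70 and 5.59). The clusters at Ptprc and Plcg2 lay wholly inside the gene, while that at Grb2 had 1 summit in an intron and 5 between genes. Enrichment of genes of blood cell signalling was not tested.

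The cluster near Ccr1 was not alone in having a high listed -log10 p for its fold enrichment. The median over regions of -log10 p divided by fold enrichment was 8.73 in replicate 1 and 9.79 in replicate 2 in 6 regions 26.2 kb from Yy1. It was 8.04 and 9.28 in 8 regions at Tbc1d2b, 7.93 and 8.21 near Ccr1, and 7.32 and 7.59 in 6 regions near Ifitm3, while in Prkch it was 3.48 and 3.98.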
